A study of Mus musculus with 2 samples.

Results

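Bone morphogenetic protein (BMP) signalling and its Id target genes were followed in mouse flexor tendon cells under mechanical shear. The members were 10 named genes: 2 ligands (Bmp2, Bmp4), 3 receptors (Bmpr1a, Bmpr2, Acvr1), 2 receptor-activated Smads (Smad1, Smad5) and 3 Id genes (Id1, Id2, Id3). A probe, meaning a spot of a complementary DNA clone on the array, was assigned to a member where the platform annotation gave that gene as its only symbol. This gave 32 probes for 9 of the 10 members, out of 10791 genes measured on at least 1 array. Acvr1 had no such probe and was not analysed here.

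The study hybridised tenocytes, the fibroblast-like cells of tendon, to 2 two-colour arrays, 1 for 6 h of shear and 1 for 12 h. On each array the Cy3 channel held RNA of control cells and the Cy5 channel RNA of cells sheared for that time. The label of the 12 h sample gives a shear setting of 50 rpm, and both channels of the 6 h array are labelled as pooled cells. No genotype, strain, age or agent is given, and the 2 arrays have different control RNA. All values below are log2 ratios per probe after subtraction of the array's median over all spots, and a gene's value is the median of its probes. The direction, sheared over control, is likely from the dyes but is not stated, and base 2 is assumed from the range of the values. A ratio formed in the opposite sense would turn each sign below. With 1 array per time there was no replicate check and no test. Higher and lower therefore describe these arrays. The spread between the probes of a gene was the only error that could be estimated within an array. Sheared cells had the same dye on both arrays, so a dye effect of a probe cannot be told apart from shear.

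BMPs are secreted ligands of the TGF-beta superfamily. They bind complexes of type I receptors (Bmpr1a, Acvr1) and type II receptors (Bmpr2), which phosphorylate Smad1 and Smad5. These enter the nucleus with Smad4 and activate genes of which the Id family is the best known. Id proteins have a helix-loop-helix domain but no DNA-binding region, and they hold back basic helix-loop-helix (bHLH) transcription factors by pairing with them. In tendon the bHLH factor scleraxis (Scx) marks the cell lineage, and ligands of the BMP and GDF group act in tendon formation and at its junction with bone.

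The members split into genes that read high and genes that read low, so that their common median lay near 0 on each array. Id2 and the ligand Bmp4 were at least 1.5-fold higher on both arrays, Bmp4 on neither without centring. The receptors Bmpr1a and Bmpr2 and the target Id3 were at least 1.5-fold lower on both by the median of their probes. With the mean of the probes, Bmpr1a and Id3 were so at 12 h only, and 1 Id3 clone read high on both arrays. Id1, Smad1 and Smad5 stayed within 1.5-fold on both arrays, and Bmp2 passed this fold at 6 h only, or at 12 h only with print blocks centred. The promoters of the 5 genes past 1.5-fold to one side on both arrays are shown here because Id2 and Id3, which belong to one family of BMP targets, lay on opposite sides of 0. Each is the 250 bases before the gene's start, 5′ to 3′ on the gene's strand, from RefSeq's annotation of GRCm38.p6. Capitals mark the GC-rich element GGCGCC, which Smad1 and Smad5 can bind, and the Smad-binding letters CAGAC, read on either strand as CAGAC or GTCTG.
Bmp4, chr14:46390670-46390919, minus strand: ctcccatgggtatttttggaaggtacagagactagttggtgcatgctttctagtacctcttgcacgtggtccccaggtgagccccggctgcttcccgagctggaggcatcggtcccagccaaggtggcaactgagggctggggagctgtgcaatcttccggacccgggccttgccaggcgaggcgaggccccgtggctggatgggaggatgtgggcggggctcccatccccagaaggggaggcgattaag
Bmpr1a, chr14:34502547-34502796, minus strand: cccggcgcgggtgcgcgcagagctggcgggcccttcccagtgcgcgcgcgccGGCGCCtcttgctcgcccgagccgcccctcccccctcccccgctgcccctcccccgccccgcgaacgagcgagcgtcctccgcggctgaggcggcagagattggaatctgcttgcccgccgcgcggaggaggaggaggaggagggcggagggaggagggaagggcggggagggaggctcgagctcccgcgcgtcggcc
Bmpr2, chr1:59764029-59764278, plus strand: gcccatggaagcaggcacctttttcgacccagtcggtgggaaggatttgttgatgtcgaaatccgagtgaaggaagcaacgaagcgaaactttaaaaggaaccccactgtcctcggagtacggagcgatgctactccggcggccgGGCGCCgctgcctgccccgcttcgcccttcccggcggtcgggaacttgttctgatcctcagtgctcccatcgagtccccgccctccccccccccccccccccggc
Id2, chr12:25096093-25096342, minus strand: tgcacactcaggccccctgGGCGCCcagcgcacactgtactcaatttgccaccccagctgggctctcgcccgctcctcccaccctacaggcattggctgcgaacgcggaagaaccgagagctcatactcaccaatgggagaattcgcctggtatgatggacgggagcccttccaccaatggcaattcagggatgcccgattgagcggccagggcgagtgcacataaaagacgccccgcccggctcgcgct
Id3, chr4:136143572-136143821, plus strand: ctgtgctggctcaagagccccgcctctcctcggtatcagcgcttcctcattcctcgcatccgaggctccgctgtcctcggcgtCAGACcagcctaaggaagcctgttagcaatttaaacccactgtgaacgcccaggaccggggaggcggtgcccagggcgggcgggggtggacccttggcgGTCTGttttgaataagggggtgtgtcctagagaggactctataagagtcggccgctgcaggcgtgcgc

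Of the 10 members, 8 were found in the promoter table, and Id1 and Bmp2 were not. GGCGCC, which reads the same on both strands, occurred once each in the windows of Bmpr1a, Bmpr2 and Id2, and once in 1 of the 3 windows listed for Smad5, a gene that read near 0. It was found in 9.59% of the 32851 promoter windows of the same length in the table. The windows of Bmpr1a and Bmpr2 thus held it together with that of Id2, although the first 2 genes read low and Id2 high. The Id3 window held CAGAC 2 times, once on each strand, and no GGCGCC, while CAGAC in either orientation occurred in 42.2% of all windows. The E-box letters CANNTG, which bHLH factors bind, occurred once in the window of Id2 and 3 times in that of Bmp4, against 66.2% of all windows with at least 1. Of the Smad5 windows, 2 held CANNTG and 1 held CAGAC. A match of letters is a description of the sequence and was not tested for binding.

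**Figure D1:**
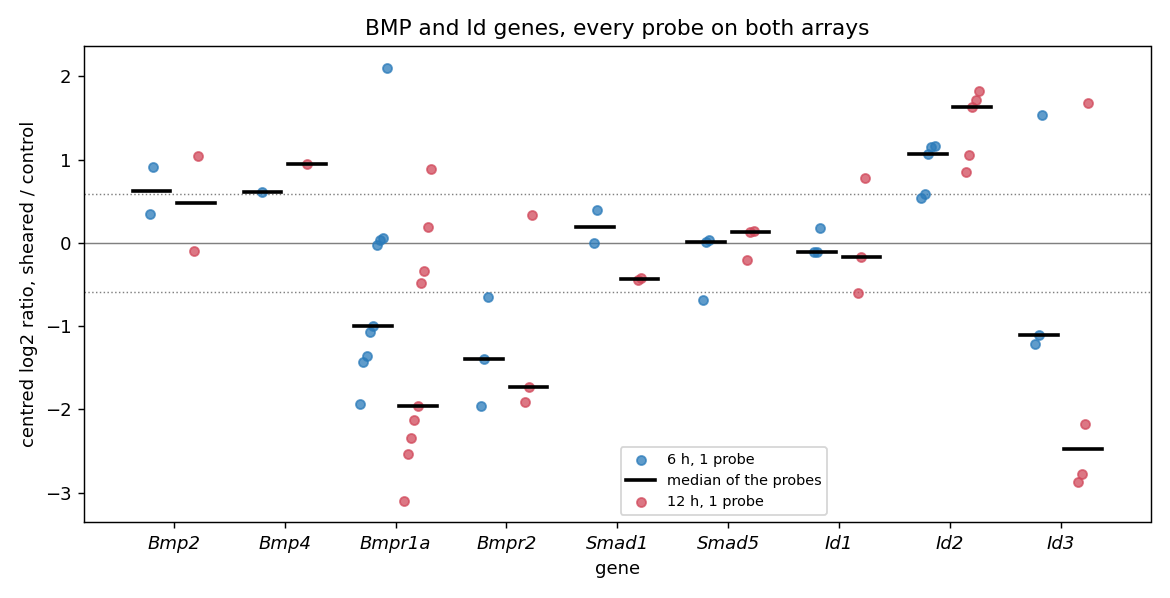
Centred log2 ratio of sheared over control cells (vertical axis) for every probe of the 9 measured members (horizontal axis), in blue at 6 h and in red at 12 h; black bars are the medians of the probes, and dotted lines mark 1.5-fold. The 5 probes of Id2 lie above 0 on both arrays, while those of Bmpr1a and Id3 lie on both sides of 0.

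Bmp2 and Bmp4, which induce bone and cartilage and pattern many embryonic tissues, read moderately high at 6 h. Bmp4 rested on 1 probe, which stood at 0.62 at 6 h and 0.94 at 12 h, or 1.53-fold and 1.92-fold higher. The 2 probes of Bmp2 stood at 0.34 and 0.91 at 6 h and at 1.05 and -0.09 at 12 h. The probe that was higher at 6 h was thus the lower one at 12 h. Both Bmp2 probes list the same GenBank entry, so they were taken as spots of 1 clone and as no separate check of the gene. Clones were told apart here and below by their GenBank entry alone. Their medians were 0.63 at 6 h (probe SD 0.40) and 0.48 at 12 h (probe SD 0.81). The 2 spots differed by more than the shift of the median between the times. Without centring, both ligands remained above 0 at 6 h, at 0.31 for Bmp2 and 0.29 for Bmp4, but under 1.5-fold. At 12 h Bmp4 was likewise under 1.5-fold, at 0.46, and Bmp2 stood at -0.0005. With print blocks centred, Bmp2 stood at 0.57 at 6 h and 0.62 at 12 h.

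Bmpr1a, the type I receptor for BMP2 and BMP4 and the member with most probes, had 9 different clones. Their median was -0.999 at 6 h (probe SD 1.22) and -1.96 at 12 h (probe SD 1.39), which is 1.999-fold and 3.88-fold lower. The clones were divided here by their own values, into those at least 1.5-fold lower on both arrays and the rest. The same 5 clones were at least 1.5-fold lower on both arrays, from -1.94 to -0.999 at 6 h and from -3.09 to -1.96 at 12 h. Each of these 5 read lower at 12 h than at 6 h, by a difference between -1.16 and -0.89. The other 4 stood at 2.11, 0.06, 0.04 and -0.02 at 6 h. The same 4 clones, in that order, stood at -0.48, 0.19, -0.34 and 0.89 at 12 h. The low value of Bmpr1a therefore rests on 5 of its 9 clones, which were picked for being low. Over all 9 the difference between the times ran from -2.59 to 0.91. Of the 9, 7 were lower at 12 h, beside 43.0% of all probes with 1 symbol on both arrays. Of the 2537 genes with 3 or more probes at 6 h, 8.67% had a larger probe SD than Bmpr1a, and of 2634 such genes at 12 h, 9.53% had. Whether clones carry other parts of the transcript or are assigned to a wrong gene was not tested.

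Bmpr2, the type II receptor that phosphorylates the type I receptors, had 3 probes. They stood at -1.96, -1.40 and -0.66 at 6 h. In the same order they stood at -1.91, -1.73 and 0.34 at 12 h. All 3 were low at 6 h, and the highest of them was above 0 at 12 h. The medians were -1.40 (probe SD 0.66) and -1.73 (probe SD 1.25), or 2.64-fold and 3.33-fold lower. Bmpr2 lay above 10.9% of all genes at 6 h and above 7.87% at 12 h. The corresponding shares for Bmpr1a were 18.9% and 5.70%. The means of the probes were nearer to 0, at -0.51 and -1.31 for Bmpr1a and -1.34 and -1.10 for Bmpr2, so that Bmpr1a no longer passed 1.5-fold at 6 h.

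Smad1 and Smad5, which carry the BMP signal to the nucleus, stood near 0. The 2 probes of Smad1 were at 0.40 and -0.01 at 6 h and at -0.42 and -0.45 at 12 h. Both were lower at 12 h, and the median moved from 0.19 (probe SD 0.28) to -0.43 (probe SD 0.02). Without centring the 6 h value was below 0, at -0.13. The 3 probes of Smad5 were at 0.03, 0.01 and -0.68 at 6 h and, in the same order, at 0.13, -0.21 and 0.14 at 12 h. Its medians of 0.01 (probe SD 0.41) and 0.13 (probe SD 0.20) were smaller than the spread of its probes, and both were negative without centring and with print blocks centred. Transcript levels of Smad1 and Smad5 do not report their phosphorylation, which the arrays did not measure.

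The 3 measured Id genes, all direct BMP targets in many cell types, differed in sign. Id2 read high on every probe. At 6 h its 5 probes, from 5 clones, stood at 0.54, 0.58, 1.06, 1.17 and 1.15, and at 12 h, in the same order, at 0.86, 1.06, 1.63, 1.72 and 1.82. Every probe was higher at 12 h than at 6 h, by 0.32 to 0.68. The medians were 1.06 (probe SD 0.31) at 6 h and 1.63 (probe SD 0.43) at 12 h, or 2.09-fold and 3.10-fold. Id2 lay above 94.8% of all genes at 6 h and above 94.7% at 12 h. Its place among all genes was thus nearly the same on both arrays, although its log2 ratio was larger at 12 h. Of the 563 genes with 5 or more probes on both arrays, 24.0% also had every probe higher at 12 h. Every probe lay above 0 on both arrays, as in 32.1% of genes with 5 or more probes at 6 h and 32.9% at 12 h. All 5 probes passed 1.5-fold at 12 h, which held for 17.4% of 599 genes with 5 or more probes. Without centring the medians were 0.74 and 1.16.

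Id1 had 3 probes near 0 at 6 h, at 0.18, -0.11 and -0.11. At 12 h the same probes, in that order, stood at -0.17, -0.60 and 0.78. They were close together at 6 h and on both sides of 0 at 12 h, with medians of -0.11 (probe SD 0.17) and -0.17 (probe SD 0.71). The sign of Id1 had no stable direction: it was above 0 at 6 h with print blocks centred (0.04), and without centring it was -0.43 at 6 h and -0.65 at 12 h.

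Id3 had 4 clones, 3 of which read low and 1 high. The low clones stood at -1.21 and -1.10 at 6 h, where the third had no value, and at -2.88, -2.18 and -2.77 at 12 h. The high clone stood at 1.54 at 6 h and 1.68 at 12 h. The 2 low clones measured at both times were further below 0 at 12 h, by a difference of -1.66 and -1.07. The gene's medians were -1.10 at 6 h and -2.48 at 12 h, the latter 5.56-fold lower, and over the 3 clones measured at both times the 12 h median was -2.18. Its probe SD of 1.56 was exceeded by 4.69% of genes with 3 or more probes at 6 h, and its SD of 2.17 by 1.71% at 12 h. With the mean of the probes, Id3 was at -0.26 at 6 h and -1.54 at 12 h, and it no longer passed 1.5-fold at 6 h.

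**Figure D2:**
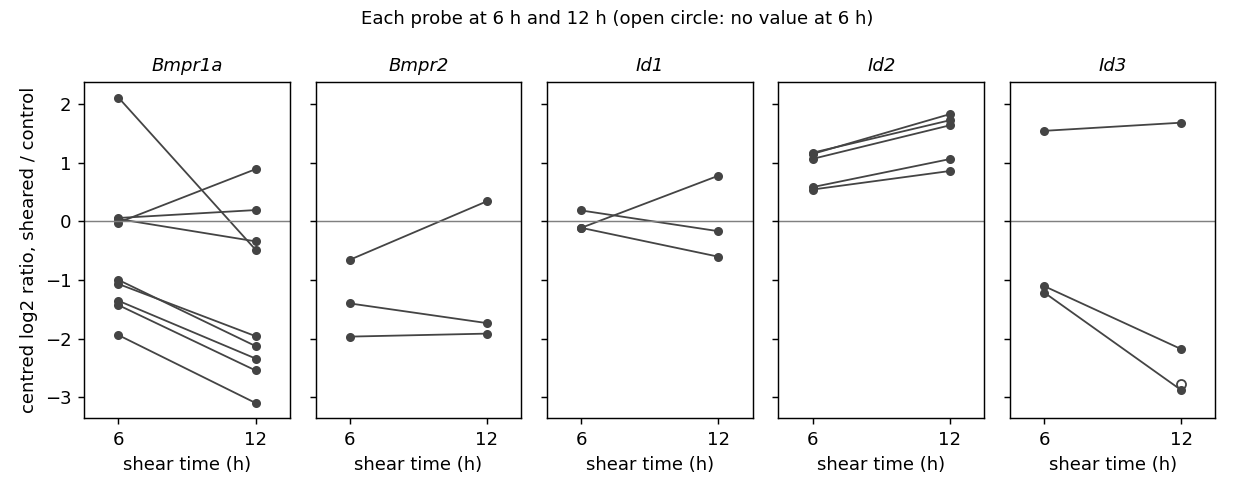
Centred log2 ratio (vertical axis) of each probe of the 2 receptors and 3 Id genes at 6 h and 12 h of shear (horizontal axis); a line joins the values of 1 probe, and the open circle is the Id3 clone with no value at 6 h. All 5 lines of Id2 slope upward, the 5 lowest lines of Bmpr1a slope downward, and the highest Id3 clone stays near 1.54 to 1.68.

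Counted as genes, 3 of the 9 members were at least 1.5-fold higher at 6 h (Bmp2, Bmp4, Id2) and 3 lower (Bmpr1a, Bmpr2, Id3). Over all 10346 genes of that array, 18.2% were as much higher and 31.3% as much lower. At 12 h, 2 members were higher (Bmp4, Id2) and the same 3 lower, against 24.4% higher and 33.1% lower among 10731 genes. The members' share that was lower, 3 of 9, was close to the background on both arrays. The share that was higher, 3 of 9 at 6 h and 2 of 9 at 12 h, was above the background at 6 h and close to it at 12 h, and no test was made of these counts. The 3 low genes were low on both arrays, as were 20.5% of the 10286 genes measured on both, and Bmp4 and Id2 were high on both, as were 13.8%. At 2-fold, Id2 was higher and Bmpr2 and Id3 were lower at 6 h, where 6.20% of all genes were higher and 18.8% lower, and Bmpr1a lay just under this fold. At 12 h Id2 was 2-fold higher, like 14.5% of genes, and Bmpr1a, Bmpr2 and Id3 were 2-fold lower, like 20.5%. Counted as probes, 7 of 31 were 1.5-fold higher and 11 lower at 6 h, beside 24.2% and 27.3% of all probes. At 12 h, 10 of 32 were higher and 11 lower, beside 30.7% in each direction. Bmpr1a and Id3 had probes past 1.5-fold on both sides of 0 on both arrays, which held for 14.0% of genes with 3 or more probes at 6 h and 20.0% at 12 h. Without centring, 1 member was higher and 3 were lower at 6 h, and 1 was higher and 5 were lower at 12 h, the additional 2 being Id1 and Smad1. On that scale 8.35% of all genes were higher and 43.7% lower at 6 h, and 13.4% were higher and 51.5% lower at 12 h. The median over the members was 0.01 at 6 h and -0.17 at 12 h, beside -0.11 and -0.14 over all genes.

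Between the times, the largest differences of gene values, 12 h minus 6 h, were -1.37 for Id3, -0.96 for Bmpr1a, -0.63 for Smad1 and 0.57 for Id2. The first 3 passed 1.5-fold, as did 17.4% of all genes in that direction. The Id3 difference sets 4 probes at 12 h against 3 at 6 h. Over the 3 probes measured on both arrays its medians were -1.10 at 6 h and -2.18 at 12 h. The probes of the members correlated between the arrays with Pearson's r = 0.81 over 31 probes, and all 20414 probes with 1 symbol with r = 0.68. These correlations describe probes that share both arrays, the order of the dyes and, in part, a gene.

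**Figure D3:**
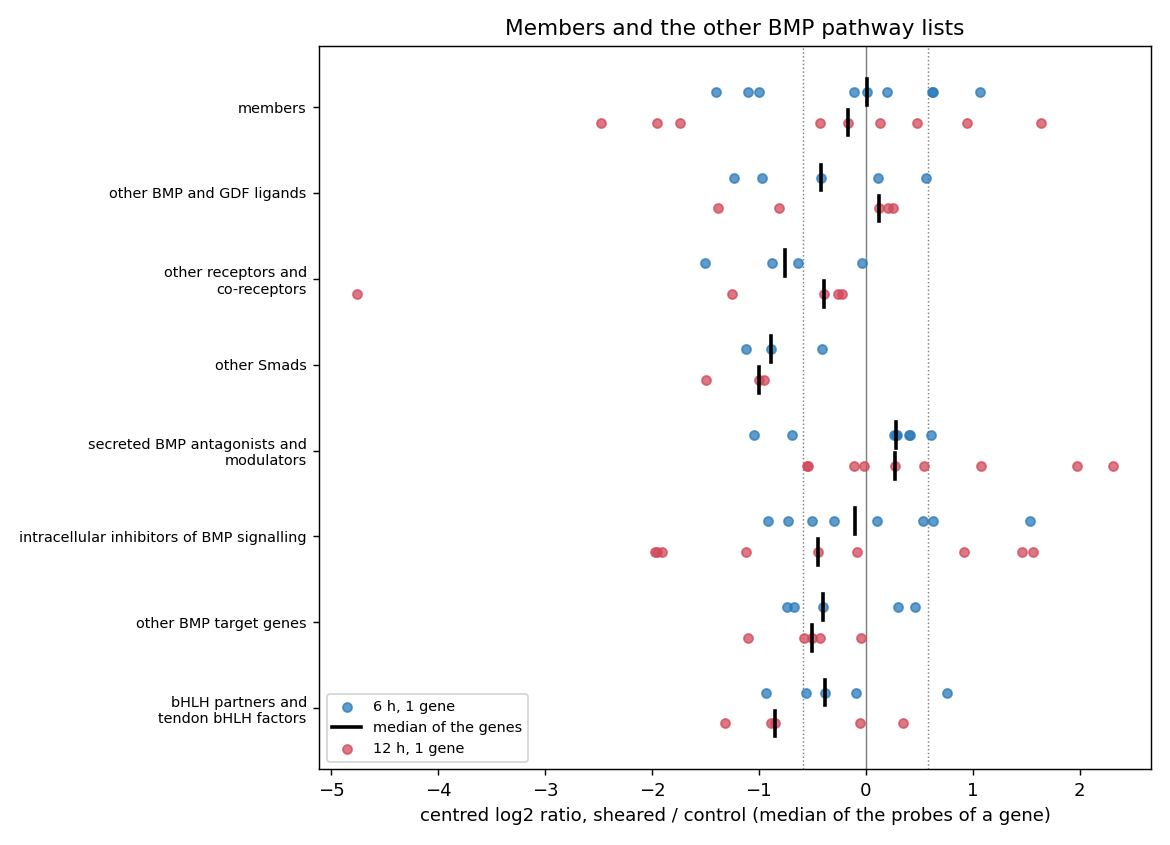
Centred log2 ratio per gene (horizontal axis) for the members and 7 further lists of the BMP pathway (vertical axis), in blue at 6 h and in red at 12 h; black bars are medians of the genes and dotted lines mark 1.5-fold. The 3 measured genes of the other Smads all lie below 0, and the members reach from -2.48 to 1.63 at 12 h.

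The wider pathway was described by 7 lists with 72 genes, of which 38 were measured at 6 h and 41 at 12 h. At 6 h, 4 passed 1.5-fold upward and 14 downward, beside 18.2% and 31.3% of all genes. At 12 h, 6 passed it upward and 15 downward, beside 24.4% and 33.1% of all genes. The same shares stand beside the centred counts of each list below. The medians of the listed genes were -0.39 and -0.43, beside -0.11 and -0.14 over all genes. Without centring the counts were 1 higher and 21 lower at 6 h and 5 higher and 25 lower at 12 h, beside the 43.7% and 51.5% of all genes that were lower on that scale.

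Among the other ligands, 5 of 15 were measured, with none higher and 2 lower on each array. Bmp15, an oocyte growth factor, stood at -1.23 (probe SD 0.56) and -1.38 (probe SD 0.51) on 2 probes. Gdf5, Gdf6 and Gdf7, the members of the family known for joint and tendon formation, had no probe. Among the other receptors and co-receptors, none of 4 was higher and 3 were lower at 6 h, and none of 5 was higher and 2 were lower at 12 h. The type II receptor Acvr2b, which binds activins and BMPs, was low on both, at -1.51 (probe SD 1.20) and -1.25 (probe SD 0.83). Its 2 probes were far apart. The type I receptor Acvrl1 and the co-receptor Eng, named after their values were seen, stood at -0.88 and -0.63 at 6 h and nearer to 0 at 12 h, at -0.26 and -0.23. Of the 4 other receptors measured on both arrays, 3 had a higher value at 12 h than at 6 h, as did 5818 of all 10286 genes. The medians of Bmpr1a and Bmpr2 were lower at 12 h, although 2 of the 3 Bmpr2 probes were higher.

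The other Smads read low, with medians of -0.889 at 6 h and -0.998 at 12 h over 3 genes. Smad6, which inhibits BMP signalling and is itself a BMP target, had 2 probes at -1.38 and -0.86 at 6 h and at -1.76 and -1.23 at 12 h. Its medians were -1.12 and -1.50. Smad7, the inhibitor of both TGF-beta and BMP signalling, stood at -0.889 and -0.998 on 1 probe. Smad4, the partner of all receptor-activated Smads, is named after its values were seen. Its 2 probes stood at -0.27 and -0.56 at 6 h and at -0.999 and -0.911 at 12 h. Every probe of these 3 genes was below 0 on both arrays. After centring, the median of all spots is 0 on each array, and 81.3% of all probes with 1 symbol kept their side of 0.

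Of the secreted antagonists and modulators, 3 of 9 were higher and none was lower at 12 h, beside 24.4% and 33.1% of all genes. At 6 h, 1 of 8 was higher and 2 were lower, beside 18.2% and 31.3%. With print blocks centred 1 of the 9 was lower at 12 h, and without centring 3 were. Fstl3, a follistatin-like protein that binds activins and BMPs, stood at 0.60 and 0.61 on its 2 probes at 6 h and at 2.30 and 2.31 at 12 h. Its 12 h median of 2.31 was 4.95-fold higher. Fst, follistatin, named after its values were seen, stood at 0.41 at 6 h and 1.98 at 12 h on 1 probe. The third gene higher at 12 h was Bmp1, also named after its values were seen. Its medians over 3 probes were 0.26 (probe SD 0.32) at 6 h and 1.08 (probe SD 0.67) at 12 h. The BMP antagonist noggin (Nog) stood at 0.28 and -0.54 and chordin (Chrd) at 0.29 and 0.54, each on 1 probe and also chosen after the values were seen. Nog and Chrd turned negative without centring at 6 h, so their 6 h direction depends on the scaling.

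The intracellular inhibitors were divided. Bambi, a pseudoreceptor that blocks TGF-beta and BMP receptors, stood at 1.53 at 6 h and 1.56 at 12 h on 1 probe. Tob1, which inhibits BMP-activated Smads, had 3 probes at 0.26, 1.20 and 0.63 at 6 h and, in that order, at 0.74, 1.46 and 1.65 at 12 h. Smurf2, a ubiquitin ligase that degrades Smads and receptors, stood at -0.92 (probe SD 0.21) and -1.97 (probe SD 0.06) on 2 probes. The repressor Ski stood at -0.73 and -1.12 on 1 probe. In all, 2 of 8 were higher and 2 lower at 6 h, and 3 of 9 were higher and 4 lower at 12 h. These 4 genes kept their side of 0 on both arrays under each scaling tried.

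Among the other BMP targets, none of 5 was higher, and 2 were lower at 6 h and 1 at 12 h. The one past 1.5-fold on both arrays was Hey1, a repressor shared with Notch signalling, at -0.67 and -1.10 on 1 probe. Id4 had no probe. For the bHLH factors with which Id proteins pair and the bHLH factors of mesenchymal cells, 1 of 5 was higher and 1 lower at 6 h, and none was higher and 3 were lower at 12 h. Tcf4, an E protein, stood at -0.93 (probe SD 1.14) and -0.89 (probe SD 1.38) on 6 probes that ranged from -2.31 to 1.54 at 12 h. Scx had no probe, so the tendon bHLH factor could not be set beside the Id genes.

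The arrays held 42624 spots, with 39776 measured at 6 h and 41717 at 12 h, and the subtracted medians were -0.323 and -0.479. Each log2 ratio above that was centred on the array's median lies lower by that array's amount without centring. The pooled SD between probes of a gene was 0.738 at 6 h and 0.855 at 12 h. Spots that list the same GenBank entry, 524 entries at 6 h and 579 at 12 h, had pooled SDs of 0.900 and 0.997, against 0.721 and 0.836 between different clones of a gene. The SDs between clones cover 5260 and 5423 genes, and the spots of each entry were averaged first. The sets and the averaging differ, so these SDs cannot tell whether repeated spots, as for Bmp2, lie closer together than different clones. The table gives ratios and no levels, so the cell type could not be checked by the abundance of its markers. Tendon and fibroblast markers had medians of 0.03 and -0.05 over 9 genes. The medians of cartilage markers were -0.20 and -0.35, of bone 0.12 and -0.40, of endothelium -0.45 and -0.61, of leukocytes 0.39 and 0.46 and of skeletal muscle 0.34 and 0.35, each over 3 to 5 genes. Their part in the values of the members was not tested, and fewer cells of a type cannot be told apart from less RNA per cell.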

How the data were processed

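The authors deposited 1 log ratio per spot and array, taken here as log2, in a table of 42624 spots. The scanner, background correction, normalization and spot filter are not given in the sources used here. The median of all measured spots was subtracted per array with pandas 2.3.3 in Python 3.11.15. Gene names came from GEO's platform annotation, where 21701 spots had 1 symbol, 1124 several and 19799 none. These symbols were checked by gene ID against RefSeq (GRCm38.p6), and 0 were updated. Probes with 1 symbol were summarised per gene by their median. Genes past 1.5-fold were counted in each direction, and no test was possible with 1 array per time. The counting code was run on simulated data with planted shifts. The only criterion was that shifts without noise were all recovered and no other gene was called. That run checks the code and does not measure the error of the counts. Spot intensities were not used here, so the depth is unknown, and precision is limited by the number of arrays.

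The members and the lists were chosen with earlier results of these data known. All measured members were named. From the other lists, each gene at least 1.5-fold to the same side on both arrays was named, and others are said to be chosen after their values were seen. Alternatives were the values as deposited, centring of 48 print blocks of 900 consecutive spot numbers (an assumed layout), the mean of probes, 2 or more probes per gene, probes with several symbols, scaling to one median absolute deviation and a fold of 2.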

Additional observations from a re-analysis of the deposited data

Results flagged for a closer look

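Smad1 stood on opposite sides of 0 on the 2 arrays, at 0.1945 at 6 h and -0.4325 at 12 h. Both its probes were lower at 12 h, by a difference of -0.81 and -0.44. This difference between the times was not tested, since each time has 1 array. Neither value passed 1.5-fold, and without centring both were below 0, at -0.13 and -0.91.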

How the results depend on the processing

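Of 146 recomputed values, 131 stayed within the spread between probes or, for counts, within 1.5 times, and 15 did not. Part of the 131 could not move. No member probe had several symbols, and a minimum of 2 probes leaves a gene's own median as it was. Where probes were far apart the limit was also wide. Bmpr1a and Id3 at 6 h fell under 1.5-fold with the mean of probes and still counted as within it. At 6 h, 3 members were at least 1.5-fold higher, but 1 was without centring and 1 passed 2-fold. The 3 lower members became 1 with the mean of probes (Bmpr2). At 12 h, the 2 higher members became 1 at 2-fold, without centring and over genes with 2 or more probes, and the 3 lower members became 5 without centring, where the share of all genes that were lower went from 33.1% to 51.5%. With print blocks centred, 2 members were higher at 6 h and 3 at 12 h, as Bmp2 passed 1.5-fold at 12 h in place of 6 h. Over the alternatives, Id2 ranged from 0.74 to 1.20 at 6 h and from 1.16 to 1.66 at 12 h. Bmp4 ranged from 0.29 to 0.70 at 6 h and from 0.46 to 0.99 at 12 h. Bmpr2 ranged from -1.72 to -1.34 and from -2.21 to -1.10, Bmpr1a from -1.32 to -0.51 and from -2.44 to -1.31, and Id3 from -1.43 to -0.26 and from -2.95 to -1.54. The 8 values of single members that moved by more than their probe spread belonged to Smad1, Smad5, Id1 and Id2. No paired analysis was possible because each time has 1 array.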
